A study of Cricetulus griseus with 24 samples.

Results

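The NF-kB subunits and inhibitors described here were 10 of the 28037 genes in the deposited count table. They were the rows whose symbol is Nfkb1, Nfkb2, Rela, Relb, Rel, Nfkbia, Nfkbib, Nfkbie, Tnfaip3 or Ikbkb, and each symbol matched 1 row. All 10 members were expressed in every culture and passed the filter on low counts in all 12 comparisons that were fitted.

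NF-kB is a family of dimeric transcription factors that sit in the cytoplasm of resting cells, held there by IkB proteins. Signals from tumor necrosis factor, interleukin-1 and Toll-like receptors reach the IkB kinase (IKK) complex, which marks the IkB proteins for degradation and releases the dimers to the nucleus. Several of the inhibitors are themselves NF-kB targets, so that the pathway restrains its own activity, and the cytomegalovirus promoter used for transgenes in Chinese hamster ovary (CHO) cells carries NF-kB binding sites.

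RNA-seq was performed on 3 CHO cell lines at the exponential and the stationary phase of growth in suspension, in serum-free medium. A0 is a parental CHO DG44 clone that produces a humanized antibody after co-transfection of a plasmid with the heavy chain and a plasmid with the light chain and Neo, with selection in G418. A1 is the progeny of A0 after amplification in methotrexate, and CHO-S is a line that makes no antibody and served as the negative control (its sample titles also carry the abbreviation NDST, which the labels do not explain). Exponential A0 was represented by 8 libraries of 4 numbered cultures, summed here per culture number. Stationary A0 was represented by 4 cultures, and A1 and CHO-S by 3 cultures at each phase. The added library of an exponential A0 culture is titled RLT for cultures 1 and 2 and Duplicate for cultures 3 and 4. The titles do not explain RLT, and the RLT libraries were not close repeats, so the sums for cultures 1 and 2 mix unlike libraries. Each producer line is 1 clone, so a difference between A1 and A0 is a difference between 2 cell lines and cannot be told apart from clonal variation. The labels number the samples without saying that each number is a separate flask, so the p-values measure the spread between these samples, which may in part be technical. In exponential A0 the libraries of cultures 1 and 2 not titled RLT differed less (chi-square per degree of freedom 2.54) than the Duplicate pairs (3.29 and 2.88). Cultures 1 and 2 may therefore not be independent, although the tests count them as 2 cultures.

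Reads counted on genes ranged from 1038026 to 14652646 over the 24 libraries (median 12166034). One CHO-S stationary library, culture 1, stood apart with the lowest total, against 6532373 in the next library (A1 stationary culture 1), and with the highest share of reads outside genes (32.8%). Member counts lay between 8 and 145 in that library and between 90 and 12812 in all other cultures. In A1, exponential culture 2 stood above the other cultures of its group for 9 of 10 members. Vim, a fibroblast-type marker, was expressed in every group, and the markers of epithelial and blood cells (Krt8, Krt18, Ptprc and Cd3e) had at most 4 counts in any culture.

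Expression levels below are CPM (a gene's count as a share of the library's counts, scaled up alike in all cultures) after TMM normalization over the 20 cultures, and they compare samples for 1 gene, not genes with each other, because no transcript lengths were used. Differences are log2 fold changes with their standard error (SE) from edgeR's quasi-likelihood test, with p-values adjusted by the Benjamini-Hochberg procedure over all genes tested and a threshold of 0.05. The genes tested include genes with very few counts, and 10588 genes had a mean of at least 5 CPM over the 20 cultures. The lowest group mean of a member was 10.5 CPM. The shares of all genes given beside member counts are therefore not shares among genes of like level, which were not computed.

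**Figure D1:**
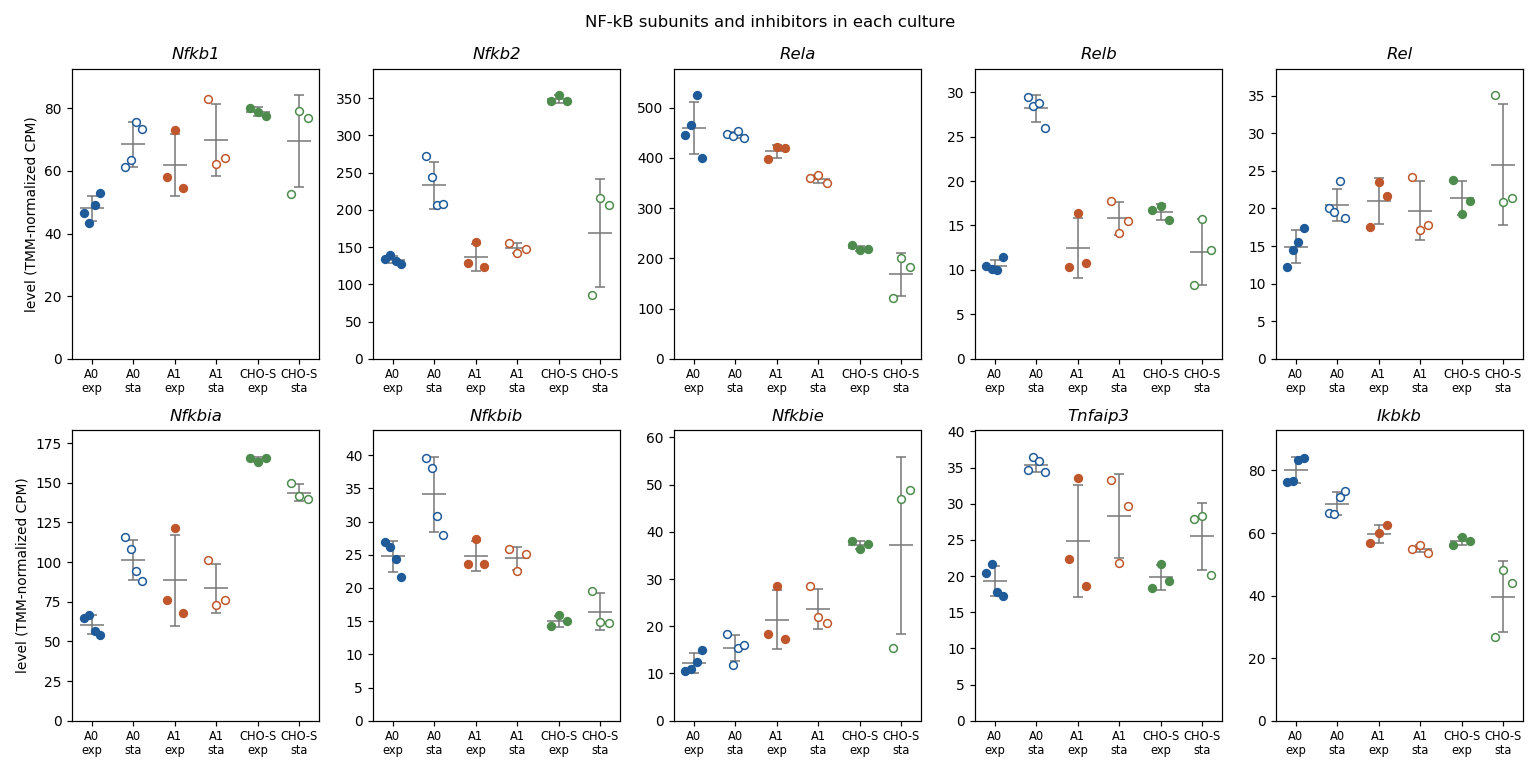
Level of each of the 10 genes in every culture, in TMM-normalized CPM on a linear axis that starts at 0, for A0 (blue), A1 (orange) and CHO-S (green) at exponential (filled) and stationary phase (open), with the group mean and SD as grey bars. For Relb and Tnfaip3 the stationary A0 cultures lie above every other A0 and A1 culture, and CHO-S stationary culture 1 lies low for Nfkb1, Nfkb2, Rela, Relb, Nfkbie and Ikbkb.

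The comparison of A1 with A0 asks which transcripts differ between the amplified line and its parent. In exponential culture, 4 members were higher in A1 (Nfkb1, Rel, Nfkbia and Nfkbie) and 1 was lower (Ikbkb), so that 5 of 10 passed the test, where 25.9% of all 19946 genes tested did (12% higher and 13.8% lower). At stationary phase 1 member was higher in A1 (Nfkbie) and 6 were lower (Nfkb2, Rela, Relb, Nfkbib, Tnfaip3 and Ikbkb), so that 7 of 10 passed, against 33.7% of 19293 genes (16% higher and 17.7% lower). The median log2 fold change of the 10 members was 0.30 in exponential culture and -0.34 at stationary phase, against -0.04 and 0.00 over all genes tested. Nfkbie and Ikbkb passed the test at both phases. Without A1 exponential culture 2 the exponential count was 2 of 10, Nfkbie and Ikbkb, against 17.2% of all genes (7.66% higher and 9.53% lower).

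**Figure D2:**
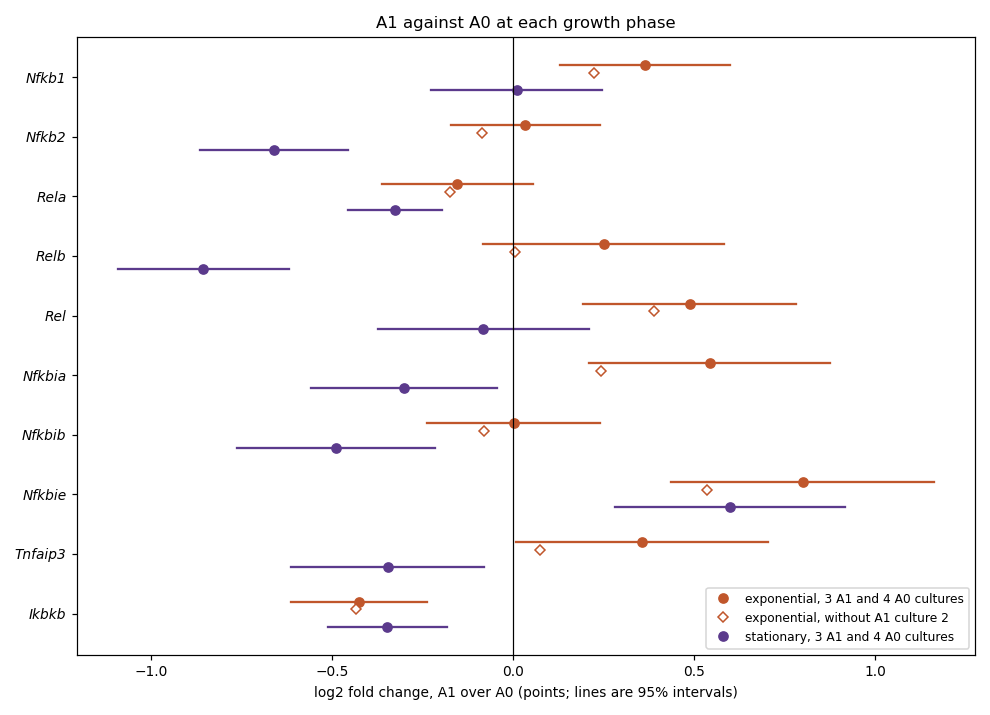
Log2 fold change of A1 over A0 for each gene (points) with its 95% interval (lines), in exponential (orange) and stationary (purple) culture, and in exponential culture without A1 culture 2 (open diamonds). Nfkbie lies above 0 and Ikbkb below 0 at both phases, whereas Nfkbia and Tnfaip3 lie above 0 in exponential culture and below 0 at stationary phase.

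In the change from exponential to stationary phase, 7 of 10 members rose in A0 (Nfkb1, Nfkb2, Relb, Rel, Nfkbia, Nfkbib and Tnfaip3) and none fell, where 37.7% of all genes tested passed (17.7% rose and 20.1% fell). In A1, no member rose and 1 fell (Rela), where 33.4% of all genes passed the test (15.6% rose and 17.8% fell). By edgeR, 2 members of A1 had an unadjusted p under 0.05. The share of all genes at that threshold is not given here and cannot be below the 33.4% that passed after adjustment. Without A1 exponential culture 2, 5 members rose in A1 (Nfkb1, Nfkb2, Relb, Nfkbie and Tnfaip3) and Rela fell, against 29.9% of all genes (13.8% rose and 16.2% fell). The difference between the lines was tested itself, as the interaction of line and phase over A0 and A1. The stationary change was lower in A1 than in A0 for 4 members (Nfkb2, Relb, Nfkbia and Tnfaip3) and higher for none, where 8.94% of all genes passed (3.9% lower and 5.04% higher). Without A1 exponential library 2 the count was 2, Nfkb2 and Relb, where 5.85% of all genes passed (2.06% lower and 3.78% higher).

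**Figure D3:**
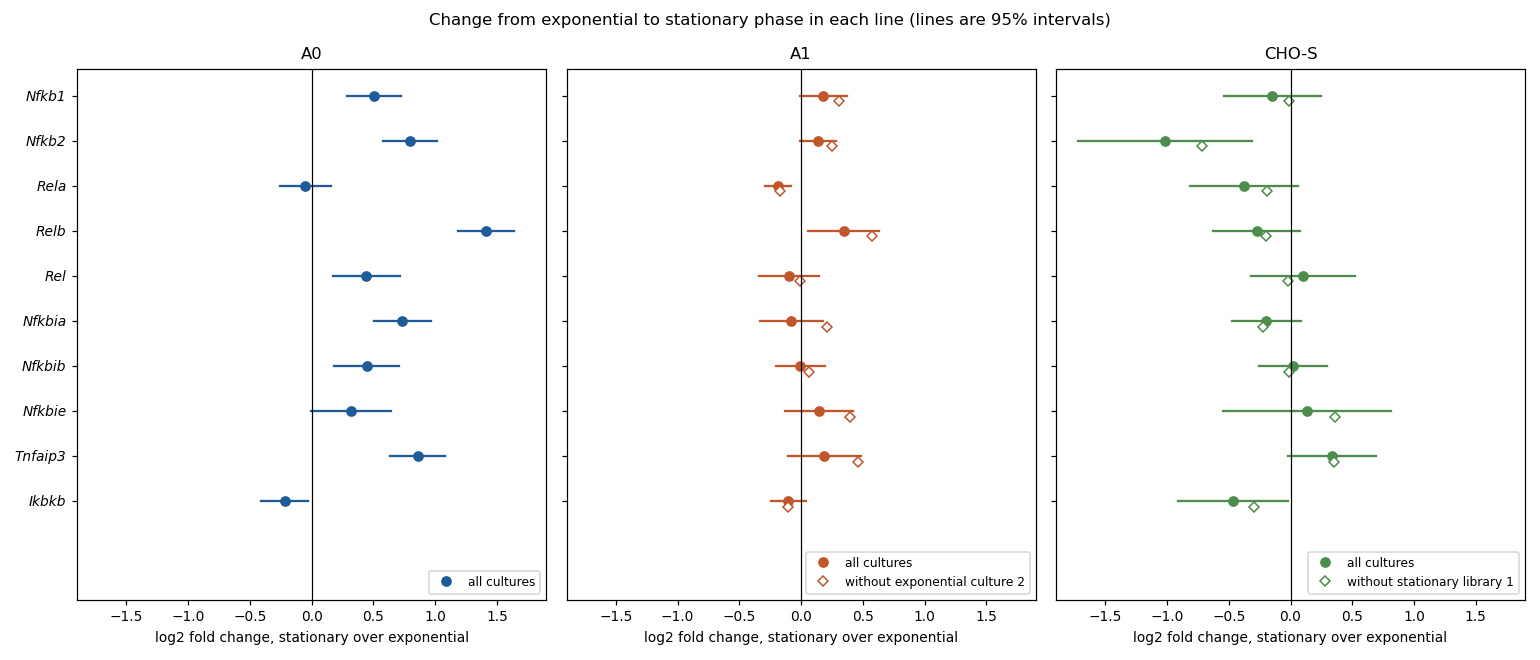
Log2 fold change of stationary over exponential culture with its 95% interval in A0, A1 and CHO-S, with open diamonds for the values without A1 exponential culture 2 and without CHO-S stationary library 1. Relb has the largest rise of the 10 genes in A0 (1.41), the A1 values lie between -0.19 and 0.34, and Nfkb2 has the lowest value in CHO-S (-1.02).

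Of the subunits, Rela encodes p65, the main transactivating partner of the classical NF-kB dimer. Rela was at 446, 465, 525 and 400 CPM in exponential A0 cultures 1 to 4 and at 398, 421 and 419 CPM in exponential A1 cultures 1 to 3. These groups overlapped, and the log2 fold change of -0.15 (SE 0.098) did not pass the test (adjusted p = 0.278 from edgeR). At stationary phase the values were 448, 444, 454 and 440 CPM in A0 and 361, 365 and 350 CPM in A1. No A1 culture reached the lowest A0 culture, and Rela was 1.25-fold lower in A1 (log2 fold change -0.33, SE 0.061, adjusted p = 0.000816 from edgeR). Fitted together with all 6 groups, the stationary difference no longer passed the test (adjusted p = 0.0647 from edgeR). Between the phases Rela fell in A1 by 0.19 on the log2 scale (SE 0.052, adjusted p = 0.00581 from edgeR), and in A0 its change was -0.05 (SE 0.097). The fall in A1 did not pass with all 6 groups in 1 fit (-0.20, adjusted p = 0.38 from edgeR) or without TMM factors (-0.12, adjusted p = 0.0535 from edgeR). The difference between these changes was -0.17 (95% interval -0.42 to 0.07) and did not pass the test.

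Nfkb1 encodes p105, the precursor of the p50 subunit. In exponential culture it was at 46.5, 43.3, 49.2 and 52.9 CPM in A0 and at 58.1, 73.1 and 54.4 CPM in A1. The A1 cultures lay above all A0 cultures, with culture 2 the highest, and Nfkb1 was 1.29-fold higher in A1 (log2 fold change 0.36, SE 0.110, adjusted p = 0.0236 from edgeR). Without A1 culture 2 the log2 fold change was 0.22 and did not pass (adjusted p = 0.209 from edgeR). The call was also lost without A0 culture 2 (0.32, adjusted p = 0.0754 from edgeR) and without A1 culture 1 (0.40, adjusted p = 0.0519 from edgeR). At stationary phase Nfkb1 was at 61.1, 63.5, 75.7 and 73.4 CPM in A0 and at 83.0, 62.3 and 64.2 CPM in A1. The groups overlapped and the log2 fold change was 0.01 (95% interval -0.23 to 0.25). All stationary A0 cultures were above all exponential A0 cultures, a rise of 1.42-fold (log2 fold change 0.50, SE 0.103, adjusted p = 0.00103 from edgeR).

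Nfkb2 encodes p100, which restrains RelB until it is processed to p52 in the non-canonical pathway. In exponential culture its levels overlapped, with 134, 139, 132 and 127 CPM in A0 and 128, 157 and 124 CPM in A1, and the log2 fold change was 0.03 (95% interval -0.17 to 0.24). Stationary A0 cultures had 272, 244, 207 and 209 CPM, all above the 155, 142 and 148 CPM of stationary A1. Nfkb2 was 1.58-fold lower in stationary A1 (log2 fold change -0.66, SE 0.095, adjusted p = 0.000101 from edgeR). From exponential to stationary phase it rose 1.73-fold in A0 (log2 fold change 0.79, SE 0.102, adjusted p = 1.32e-05 from edgeR), with cultures 1 and 2 higher than cultures 3 and 4. In A1 the change was 0.14 (SE 0.070, adjusted p = 0.141 from edgeR). The interaction was -0.70 (SE 0.143, adjusted p = 0.00303 from edgeR), and without A1 exponential library 2 it was -0.55 (adjusted p = 0.0244 from edgeR). Without culture 2 of A1 at both phases it was -0.51 and did not pass (adjusted p = 0.0872 from edgeR). With all 6 groups in 1 fit it was -0.69 and did not pass either (adjusted p = 0.115 from edgeR).

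Relb encodes the transactivating partner of p52 in the non-canonical dimer and is itself a known NF-kB target. Among the 10 genes it had the largest difference between A0 phases. Exponential A0 cultures had 10.39, 10.11, 10.004 and 11.42 CPM and stationary A0 cultures had 29.50, 28.41, 28.76 and 26.004 CPM. The phases of A0 were far apart and the spread within each was small, a rise of 2.66-fold (log2 fold change 1.41, SE 0.107, adjusted p = 7.16e-08 from edgeR). A1 had 10.3, 16.4 and 10.8 CPM in exponential and 17.8, 14.2 and 15.5 CPM in stationary culture. The exponential value of A1 culture 2 lay inside the stationary range, and the change of 0.34 (SE 0.141) did not pass the test (adjusted p = 0.06 from edgeR), whereas without that culture it was 0.58 and passed (adjusted p = 0.00252 from edgeR). Relb was 1.81-fold lower in stationary A1 than in stationary A0, with no overlap (log2 fold change -0.86, SE 0.110, adjusted p = 4.1e-05 from edgeR). In exponential culture the groups overlapped and the log2 fold change was 0.25 (adjusted p = 0.273 from edgeR). The interaction of -1.10 (SE 0.195, adjusted p = 0.000906 from edgeR) passed the test in all 17 alternatives, at -0.83 without A1 exponential library 2.

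Rel encodes c-Rel, a subunit best known from lymphocytes. Its exponential levels were 12.2, 14.5, 15.6 and 17.4 CPM in A0 and 17.6, 23.6 and 21.6 CPM in A1. The lowest A1 culture was just above the highest A0 culture, and Rel was 1.4-fold higher in A1 (log2 fold change 0.49, SE 0.138, adjusted p = 0.0169 from edgeR). It no longer passed without A1 culture 2 (0.39, adjusted p = 0.12 from edgeR) or without A1 culture 3 (0.46, adjusted p = 0.0887 from edgeR). At stationary phase Rel was at 20.01, 19.5, 23.6 and 18.7 CPM in A0 and at 24.2, 17.1 and 17.8 CPM in A1, and the groups overlapped (log2 fold change -0.08, 95% interval -0.37 to 0.21). In A0 it rose between the phases by 0.44 on the log2 scale (SE 0.130, adjusted p = 0.0122 from edgeR), and in A1 its change was -0.10 (SE 0.120). This difference between the lines was -0.57 and did not pass the test (adjusted p = 0.0821 from edgeR). It passed without A0 culture 4 (-0.70, adjusted p = 0.0216 from edgeR) and without A1 culture 1 (-0.83, adjusted p = 0.0231 from edgeR). It also passed with A0 reduced to cultures 1 and 2 (-0.70, edgeR adjusted p = 0.0152) and with a replicate block (-0.58, edgeR adjusted p = 0.00574). Without A0 stationary culture 3 the rise in A0 was 0.37 and did not pass (adjusted p = 0.053 from edgeR). With A0 cultures 3 and 4 alone it was 0.36 and did not pass either (adjusted p = 0.134 from edgeR).

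Of the inhibitors, Nfkbia encodes IkB-alpha, the IkB protein that NF-kB induces most rapidly. Exponential A0 cultures had 64.7, 66.6, 56.5 and 54.3 CPM and exponential A1 cultures had 76.3, 121 and 67.6 CPM. All A1 cultures were higher, but culture 2 was 0.75 above the mean of the other 2 on the log2 scale. The fitted difference was 1.46-fold (log2 fold change 0.54, SE 0.156, adjusted p = 0.018 from edgeR) with culture 2 and 0.24 without it (adjusted p = 0.203 from edgeR). It was also lost without A0 culture 3 (0.51, adjusted p = 0.0639 from edgeR) and without A0 culture 4 (0.49, adjusted p = 0.0509 from edgeR). Stationary levels were 116, 108, 94.6 and 87.9 CPM in A0 and 101, 73.0 and 76.0 CPM in A1. A1 culture 1 lay within the A0 range, and the log2 fold change of -0.30 (SE 0.120) did not pass the test (adjusted p = 0.0675 from edgeR). It passed without A1 culture 1 (-0.46, adjusted p = 0.0128 from edgeR) and without A0 culture 4 (-0.37, adjusted p = 0.0218 from edgeR). Nfkbia rose 1.66-fold between the phases of A0 (log2 fold change 0.73, SE 0.109, adjusted p = 5.23e-05 from edgeR), and in A1 the change was -0.08 (SE 0.126). The interaction of -0.84 (SE 0.217, adjusted p = 0.0154 from edgeR) was -0.51 and did not pass without A1 exponential library 2 (adjusted p = 0.102 from edgeR), and was -0.42 without A1 culture 2 at both phases.

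Nfkbib encodes IkB-beta, an inhibitor that is degraded and replaced more slowly. In exponential culture its levels overlapped, with 26.9, 26.2, 24.4 and 21.7 CPM in A0 and 23.6, 27.4 and 23.6 CPM in A1, and the log2 fold change was 0.00 (95% interval -0.24 to 0.24). At stationary phase A0 had 39.6, 38.1, 30.8 and 28.0 CPM and A1 had 25.9, 22.6 and 25.1 CPM. The groups did not overlap, A0 cultures 1 and 2 were the highest, and Nfkbib was 1.4-fold lower in A1 (log2 fold change -0.49, SE 0.128, adjusted p = 0.00818 from edgeR). The call was lost by a small margin without A1 stationary culture 2 (adjusted p = 0.0568 from edgeR). Nfkbib rose in A0 by 0.45 on the log2 scale (SE 0.124, adjusted p = 0.00893 from edgeR) and its change in A1 was -0.01 (SE 0.097). The difference of -0.49 between these changes did not pass the test (adjusted p = 0.0854 from edgeR), except without A0 culture 4 (-0.52, adjusted p = 0.0305 from edgeR), with A0 reduced to cultures 1 and 2 (-0.59, edgeR adjusted p = 0.00238) and with a replicate block (-0.49, edgeR adjusted p = 0.0142). With A0 cultures 3 and 4 alone the rise of Nfkbib in A0 was 0.35 and did not pass (adjusted p = 0.0707 from edgeR).

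Nfkbie encodes IkB-epsilon, which binds dimers with p65 or c-Rel. It was higher in A1 at both phases. Exponential levels were 10.5, 10.9, 12.4 and 15.1 CPM in A0 and 18.4, 28.5 and 17.2 CPM in A1. The groups did not overlap, and Nfkbie was 1.74-fold higher in A1 (log2 fold change 0.80, SE 0.171, adjusted p = 0.00295 from edgeR). Without A1 culture 2 the value was 0.54 and still passed (adjusted p = 0.0394 from edgeR). With A0 cultures 3 and 4 alone it was 0.63 and did not pass by a small margin (adjusted p = 0.0506 from edgeR). Stationary levels were 18.4, 11.8, 15.4 and 15.96 CPM in A0 and 28.4, 21.9 and 20.6 CPM in A1. Again no A1 culture overlapped A0, and the gene was 1.51-fold higher (log2 fold change 0.60, SE 0.148, adjusted p = 0.00603 from edgeR). Without A1 stationary culture 1 the adjusted p was 0.05002, just over the threshold. Between the phases of A0 the change of 0.32 did not pass the test (SE 0.153, adjusted p = 0.12 from edgeR). With the culture number as a block it was 0.31 and passed (adjusted p = 0.0267 from edgeR). In that fit 42.7% of all genes passed, 20% upward and 22.7% downward. The Nfkbie change also passed without A0 exponential culture 4 (0.44) and without A0 stationary culture 2 (0.42). In the interaction of A1 and A0 the block gave -0.58 for Rel and -0.49 for Nfkbib, which then passed, so that 6 members did, where 16.4% of all genes passed (8.92% higher and 7.47% lower).

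Tnfaip3 encodes A20, a ubiquitin-editing enzyme that shuts off signalling upstream of IKK. In exponential culture A0 had 20.5, 21.7, 17.8 and 17.3 CPM and A1 had 22.3, 33.5 and 18.6 CPM. The groups overlapped, and the log2 fold change was 0.36 (SE 0.163, adjusted p = 0.13 from edgeR) and 0.08 without A1 culture 2. Stationary A0 cultures were within a narrow range of 34.6, 36.5, 35.9 and 34.4 CPM, above the 33.3, 21.9 and 29.6 CPM of A1. Tnfaip3 was 1.27-fold lower in stationary A1 (log2 fold change -0.35, SE 0.124, adjusted p = 0.0441 from edgeR), a difference that passed the test in 6 of 16 alternatives (adjusted p between 0.00906 and 0.253 from edgeR or DESeq2). The call was lost without A1 culture 2 (-0.18) or 3 (-0.40) and without A0 culture 1 (-0.36), 2 (-0.33) or 3 (-0.34). In A0 it rose 1.81-fold between the phases with no overlap (log2 fold change 0.86, SE 0.106, adjusted p = 8.77e-06 from edgeR), and in A1 the change was 0.19 (SE 0.144). The interaction was -0.70 (SE 0.220, adjusted p = 0.0471 from edgeR) and passed in 6 of 17 alternatives, not in the one without A1 exponential library 2 (-0.39, adjusted p = 0.287 from edgeR). Leaving out any 1 A0 culture number also ended the call, at values between -0.74 and -0.66, and leaving out A1 culture 2 at both phases gave -0.23.

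Ikbkb encodes the IKK-beta kinase that phosphorylates the IkB proteins, an activator of the pathway. It was lower in A1 at both phases. Exponential levels were 76.4, 76.7, 83.5 and 84.1 CPM in A0 and 56.7, 60.0 and 62.5 CPM in A1. The groups were well separated, the A1 cultures were close together, and Ikbkb was 1.34-fold lower (log2 fold change -0.43, SE 0.089, adjusted p = 0.00246 from edgeR). Without A1 culture 2 the log2 fold change was again -0.43. At stationary phase A0 had 66.5, 66.1, 71.6 and 73.4 CPM and A1 had 55.0, 56.1 and 53.8 CPM. Every A1 culture was lower, by 1.27-fold (log2 fold change -0.35, SE 0.076, adjusted p = 0.00263 from edgeR). The difference passed the test in all 17 alternatives in exponential and all 16 at stationary phase. Ikbkb did not rise between the phases in any line, and the A0 change of -0.22 (SE 0.089) did not pass the test (adjusted p = 0.064 from edgeR).

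The spread among A1 cultures was itself uneven over the members. In exponential culture 2 the log2 CPM was above the mean of the other 2 cultures by 0.75 for Nfkbia, 0.69 for Tnfaip3, 0.65 for Nfkbie, 0.59 for Relb, 0.37 for Nfkb1 and 0.32 for Nfkb2. Among the 10588 genes with a mean of at least 5 CPM, these differences were at percentiles 99.9, 99.8, 99.8, 99.7, 98.5 and 97.9. The same culture differed by 0.04 for Rela and 0.01 for Ikbkb, which were at the middle of all genes. At stationary phase culture 1, not culture 2, was the highest for Rel (by 0.45), Nfkbia (0.44), Nfkbie (0.40), Nfkb1 (0.39), Tnfaip3 (0.37) and Relb (0.25). Stationary culture 1 had 6532373 reads counted on genes, against 12140773 and 11350552 in stationary cultures 2 and 3. No cause of these differences was tested.

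**Figure D4:**
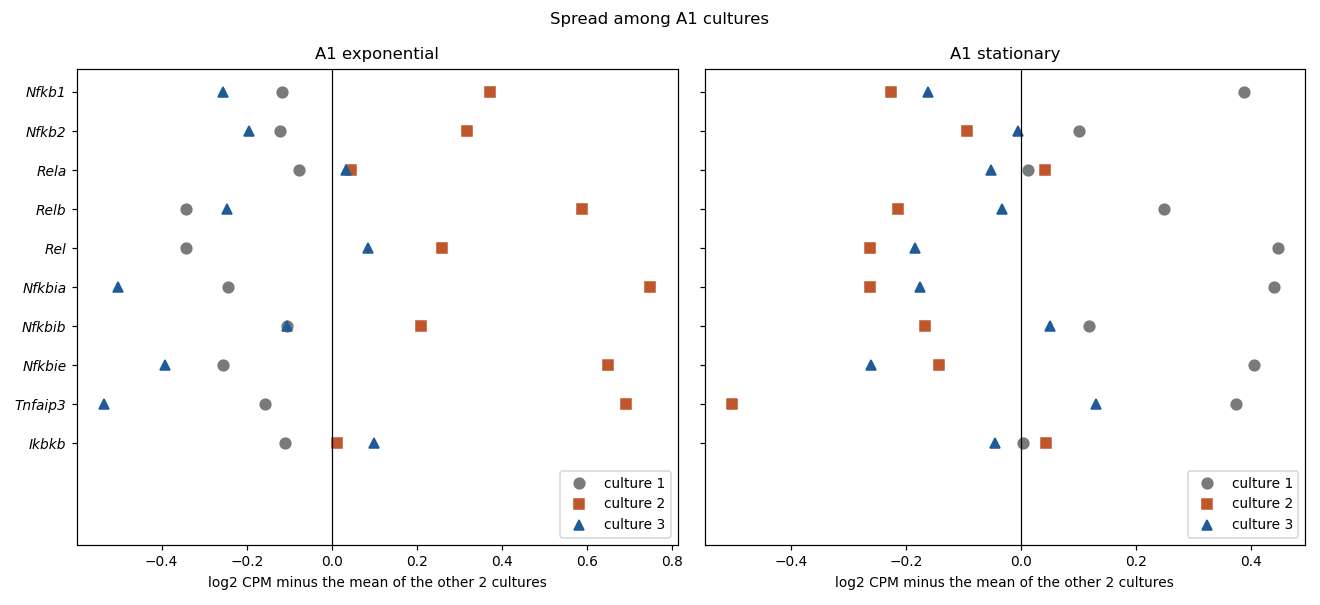
For each A1 culture, the log2 CPM of each gene minus the mean of the other 2 cultures of the same phase, in exponential (left) and stationary culture (right). Exponential culture 2 lies to the right for Nfkbia (0.75), Tnfaip3 (0.69), Nfkbie (0.65) and Relb (0.59), and the cultures lie closest together for Rela and Ikbkb at both phases.

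In exponential culture most members differed between CHO-S and each producer line, as did many of all genes tested. For A1 the member count was near the share of all genes. For A0 against CHO-S, 9 of 10 members passed the test, 3 higher and 6 lower in A0, where 49.5% of 19966 genes did (27.6% higher and 21.9% lower). For A1 against CHO-S 7 of 10 passed, 2 higher and 5 lower in A1, where 57.2% of 18488 genes did (30.0% higher and 27.1% lower). These comparisons share the CHO-S cultures and are given side by side. The A1 count without A1 culture 2 was also 7, and the share of all genes in that fit is not given here.

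Among the subunits, Rela was the one that was higher in the producer lines. Exponential CHO-S had 226, 217 and 218 CPM of Rela, fewer than any A0 or A1 culture, and Rela was 2.1-fold higher in A0 (log2 fold change 1.07, SE 0.098, adjusted p = 4.86e-07 from edgeR) and 1.87-fold higher in A1 (0.90, SE 0.042, adjusted p = 1.07e-14 from edgeR). Nfkb2 was the reverse, with 346, 354 and 346 CPM in exponential CHO-S, above every producer culture. It was 2.6-fold lower in A0 (log2 fold change -1.38, SE 0.077, adjusted p = 2.92e-09 from edgeR) and 2.57-fold lower in A1 (-1.36, SE 0.060, adjusted p = 3.62e-15 from edgeR). Nfkb1 was at 80.2, 78.9 and 77.4 CPM in exponential CHO-S, higher than in A0 (log2 fold change of A0 over CHO-S -0.70, SE 0.089) and A1 (-0.36, SE 0.075). Relb had 16.8, 17.2 and 15.6 CPM in exponential CHO-S and was lower in A0 (-0.65, SE 0.110) and in A1 (-0.41, SE 0.130), although A1 culture 2 lay within the CHO-S range. The A1 difference did not pass without A1 culture 3 (-0.32, adjusted p = 0.114 from edgeR) or CHO-S culture 2 (-0.38, adjusted p = 0.0605 from edgeR). For Rel, with 23.7, 19.2 and 21.04 CPM in exponential CHO-S, only the A0 difference passed (-0.51, SE 0.130, adjusted p = 0.00464 from edgeR). The A1 difference was -0.04 (95% interval -0.25 to 0.18).

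Of the inhibitors, Nfkbia and Nfkbie were higher and Nfkbib was lower in CHO-S than in the producer lines. Nfkbia had 166, 163 and 166 CPM in exponential CHO-S, above every A0 and A1 culture, and was 2.7-fold lower in A0 (log2 fold change -1.43, SE 0.091, adjusted p = 1.03e-08 from edgeR) and 1.88-fold lower in A1 (-0.91, SE 0.115, adjusted p = 3.12e-07 from edgeR). Nfkbie was at 38.0, 36.3 and 37.5 CPM in exponential CHO-S, and was 3.02-fold lower in A0 (-1.60, SE 0.121, adjusted p = 7.14e-08 from edgeR) and 1.76-fold lower in A1 (-0.82, SE 0.116, adjusted p = 1.69e-06 from edgeR). For both genes the A1 cultures lay between A0 and CHO-S. Nfkbib was at 14.2, 15.9 and 14.96 CPM in exponential CHO-S and was 1.66-fold higher in A0 (0.73, SE 0.112) and 1.65-fold higher in A1 (0.72, SE 0.092). Tnfaip3 did not pass in either comparison, with 18.4, 21.7 and 19.4 CPM in exponential CHO-S. For Ikbkb the CHO-S cultures, at 56.1, 58.7 and 57.3 CPM, overlapped with A1 (0.05, 95% interval -0.07 to 0.18), whereas A0 was 1.41-fold higher (0.49, SE 0.083, adjusted p = 0.000167 from edgeR).

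At stationary phase the CHO-S values depend on library 1. Its Nfkb2 level was 85.7 CPM against 216 and 207 CPM in the other cultures, Rela was at 121 against 201 and 182 CPM, Nfkbie at 15.5 against 47.0 and 48.9 CPM, and Ikbkb at 26.8 against 48.3 and 43.9 CPM. Nfkb1 was at 52.6 CPM in library 1 and at 79.1 and 77.0 CPM in the others, and Relb was at 8.26 against 15.7 and 12.2 CPM. Rel went the other way, with 35.1 CPM in library 1 against 20.9 and 21.4 CPM. Library 1 was thus the lowest for 6 members and the highest for Rel, Nfkbia (150, 142 and 140 CPM) and Nfkbib (19.6, 14.8 and 14.8 CPM). Tnfaip3 was at 27.9, 28.4 and 20.2 CPM.

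With this library, 7 of 10 members differed between stationary A0 and CHO-S (40.0% of all genes tested did, 20.7% higher and 19.3% lower), 5 of them higher in A0, and without it the count was also 7 (51.8% of all genes, 28.0% higher and 23.8% lower). Relb was 2.11-fold higher in stationary A0 than in CHO-S (log2 fold change 1.08, SE 0.180, 95% interval 0.68 to 1.48, adjusted p = 0.000887 from edgeR), although it was lower in A0 in exponential culture. Rela was 2.6-fold higher (1.38, SE 0.179) and Nfkbib 2.17-fold higher (1.12, SE 0.194) in stationary A0, and Nfkbie was 2.67-fold lower (-1.42, SE 0.277). Ikbkb passed as well, and without library 1 the values were 1.24 for Rela, 1.01 for Relb, 1.22 for Nfkbib, -1.63 for Nfkbie and 0.60 for Ikbkb. Nfkbia (-0.51, adjusted p = 0.0207 from edgeR) was -0.46 without library 1 and passed in 10 of 16 alternatives, not without A0 culture 3 (-0.48) or 4 (-0.44) nor without CHO-S culture 2 (-0.45) or 3 (-0.53). Tnfaip3 (0.48, adjusted p = 0.0361 from edgeR) was 0.54 without library 1 and passed in 8 of 16, not without any 1 of the A0 cultures (0.46 to 0.50) nor without CHO-S culture 3 (0.32). Between stationary A1 and CHO-S, 3 of 10 members passed (34.8% of all genes did, 18.2% higher and 16.6% lower): Rela at 1.06, Nfkbib at 0.65 and Nfkbia at -0.80 on the log2 scale. Nfkbib passed in 7 of 13 alternatives and lost the call without A1 culture 1 (0.60), 2 (0.69) or 3 (0.60) and without CHO-S culture 2 (0.57) or 3 (0.55). Without library 1 the count was 7 (57.4% of all genes, 29.9% higher and 27.5% lower), with Nfkb1 (-0.21), Nfkb2 (-0.54), Nfkbie (-1.07) and Ikbkb (0.22) in addition to Rela (0.88), Nfkbib (0.69) and Nfkbia (-0.80).

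The change between the phases of CHO-S passed the test for none of the 10 members with edgeR, where 13.3% of 17367 genes passed (6.81% rose and 6.48% fell). With an unadjusted p under 0.05 there were 2 members, where the share of all genes is not given and cannot be below 13.3%. DESeq2 called 1 member, Nfkb2, and its share of all genes is not given. Without library 1, 6 members passed (47.7% of all genes did, 23.1% rising and 24.7% falling). Nfkb2 fell by 0.72 on the log2 scale, Ikbkb fell by 0.30, Nfkbia fell by 0.22 and Rela fell by 0.19, while Nfkbie rose by 0.36 and Tnfaip3 rose by 0.35. The interaction of line and phase over A0 and CHO-S was 1.77 for Nfkb2 (SE 0.291, adjusted p = 0.000466 from edgeR), 1.69 for Relb (SE 0.203, adjusted p = 1.74e-05 from edgeR) and 0.92 for Nfkbia (SE 0.177, adjusted p = 0.00182 from edgeR), all higher in A0, where 10.3% of all genes passed (3.78% higher and 6.57% lower). Without CHO-S stationary library 1 these were 1.56, 1.68 and 1.01, and Nfkb1 (0.56) and Tnfaip3 (0.59) passed as well, where 17.2% of all genes did (8.43% higher and 8.75% lower). Over A1 and CHO-S, 1 member passed, Nfkb2 (1.12, SE 0.311, adjusted p = 0.041 from edgeR), where 7.6% of all genes did (3.83% higher and 3.77% lower), and it did so in 7 of 14 alternatives. It was lost without culture number 1 (1.08), 2 (1.30) or 3 (1.07) of A1 and without number 2 (1.32) or 3 (1.28) of CHO-S. Without CHO-S stationary library 1, Nfkb2 (0.84) and Relb (0.53) passed, where 25.4% of all genes did (13% higher and 12.4% lower).

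Across the 6 groups the mean level of a member varied between 1.64-fold (Nfkb1) and 3.04-fold (Nfkbie). Without CHO-S stationary library 1 the range was 1.43-fold (Rel) to 3.91-fold (Nfkbie). Exponential A0 was the lowest group for Nfkb1, Nfkb2, Relb, Rel, Nfkbia, Nfkbie and Tnfaip3 and the highest for Rela and Ikbkb. In the order of group means, neighbours overlapped at most steps. Rela and Ikbkb had the fewest overlaps, 1 each. For Rela the 2 phases of A0 overlapped and were above exponential A1, stationary A1, exponential CHO-S and stationary CHO-S in that sequence. For Ikbkb exponential A0 was the highest, followed by stationary A0, and exponential A1 overlapped with exponential CHO-S. Stationary A0 stood apart at the top for Relb, Nfkbib and Tnfaip3, and exponential CHO-S did so for Nfkb2 and Nfkbia. Nfkbie and Rel showed overlap between every pair of neighbours. For Nfkbie this rested on library 1 of stationary CHO-S. Without it the other 2 stationary CHO-S cultures were the highest group, with a mean of 47.9 CPM, followed by exponential CHO-S, and neither overlapped with the group below it. Over all 10 members 33 of 50 pairs of neighbours overlapped with library 1 and 30 without it. The same count was not made over all genes, so these overlaps are a description and not a result about the members.

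For the 2 members that passed the test between A1 and A0 at both phases, the genes with the most similar pattern of log2 CPM over the 20 cultures were sought among genes with a mean of at least 5 CPM. Pearson's r with Nfkbie was 0.951 for Fbxo42, 0.945 for Mvp and 0.943 for Dnajc14. With Ikbkb it was 0.975 for Zcchc8, 0.966 for Wdr5 and 0.965 for Pcbp1. Over 19 cultures, without CHO-S stationary library 1, these values were 0.951, 0.944 and 0.956 for Nfkbie and 0.948, 0.936 and 0.930 for Ikbkb. The most similar genes were then Dnajc14 for Nfkbie and Ppp2cb for Ikbkb (0.962). These values describe 20 cultures of 6 groups that share their lines and phases, and are given with no test.

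The other genes of the pathway were grouped by role. The shares of all genes tested that passed were 25.9% for A1 against A0 in exponential culture, 33.7% at stationary phase, 37.7% between the phases of A0 and 33.4% between those of A1. The exponential share was 17.2% without A1 culture 2. The list called further IkB proteins and IKK subunits also holds related regulators and kinases (Nkiras1, Nkiras2, Map3k14, Tank and Ikbke), here and wherever it is counted. Among its 11 genes tested, 1 was higher and 1 lower in exponential A1 than in A0, and 3 were higher and 4 lower at stationary phase. The exponential count was 1 higher and 2 lower without A1 culture 2. Nkiras2, which binds IkB proteins, was lower in A1 at both phases (log2 fold changes -0.77 and -0.65). At stationary phase Map3k14, the NF-kB-inducing kinase of the non-canonical pathway (1.04), and Nfkbil1 (0.63) were higher in A1, and Nkiras1 (-0.46) and the IKK scaffold Ikbkg (-0.30) were lower. In A0 Map3k14 fell between the phases by 1.47 on the log2 scale, and in A1 it fell by 0.48. In exponential A0 it was at 22.4, 22.5, 20.8 and 23.5 CPM and in stationary A0 at 7.26, 6.81, 9.12 and 9.07 CPM. Nfkbiz, an inducible nuclear IkB protein, had the largest rise of this list in A0 (2.23, adjusted p = 8.13e-05 from edgeR), from 6.47, 6.19, 6.07 and 5.90 CPM to 39.0, 51.7, 14.1 and 12.3 CPM, with cultures 1 and 2 above cultures 3 and 4. Ikbkg rose by 0.43 and Nfkbil1 fell by 0.71 in A0, and Chuk, which encodes IKK-alpha, fell by 0.34 in A1. With all 6 groups in 1 fit the A1 changes of Map3k14 (-0.51, adjusted p = 0.0784 from edgeR) and Chuk (-0.36, adjusted p = 0.193 from edgeR) did not pass.

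Among receptors and ligands, 4 of 14 were higher and 2 lower in exponential A1 (25.9% of all genes passed). In stationary A1 2 of 13 were higher and 2 lower (33.7% of all genes). In exponential culture 2 of 14 were higher and 2 lower without A1 culture 2 (17.2% of all genes). Il1r1, the interleukin-1 receptor, was higher at both phases (0.58 and 0.36), and its partner chain Il1rap was lower at both (-1.33 and -2.27), as was Tlr2 (-1.08 and -1.69), although in exponential culture it did not pass once A1 culture 3 was left out (-0.85, edgeR adjusted p = 0.0656). Tlr4 was higher in exponential A1 (0.55), and Tnfrsf1a was higher in stationary A1 (0.24). Tnfrsf1a passed in 9 of 16 alternatives and lost the call without A1 culture 1 (0.20), 2 (0.26) or 3 (0.26) and without A0 culture 1 (0.21) or 2 (0.21), with adjusted p up to 0.124 from edgeR. In both producer lines Tlr4 and Tnfrsf1b rose and Tnfrsf1a fell between the phases, with log2 changes of 0.76, 0.74 and -0.68 in A0 and 0.31, 0.45 and -0.27 in A1. The rise of Tlr4 in A1 did not pass without exponential culture 1 (0.22, adjusted p = 0.0539 from edgeR). With all 6 groups in 1 fit the A1 changes of Tlr4, Tnfrsf1b and Tnfrsf1a did not pass (adjusted p = 0.119, 0.0744 and 0.0948 from edgeR). Of 17 adaptors and upstream kinases, 2 were higher and 2 lower in exponential A1 (25.9% of all genes passed). In stationary A1 1 was higher and 4 were lower (33.7% of all genes). Leaving out A1 culture 2 gave 2 higher and 1 lower in exponential culture (17.2% of all genes). Map3k7, the TAK1 kinase that activates IKK, was higher at both phases (0.45 and 0.61) and its binding partner Tab2 was lower at both (-0.40 and -0.38), in exponential culture not without A1 culture 3 (-0.37, adjusted p = 0.0546 from edgeR). With all 6 groups in 1 fit Tab2 did not pass at either phase (adjusted p = 0.0798 and 0.102 from edgeR). Traf6 was higher (0.64) and Irak2 lower (-0.41) in exponential A1, and the adaptors Tradd (-0.81) and Myd88 (-0.41) were lower in stationary A1. Myd88 did not pass with all 6 groups in 1 fit (-0.40, adjusted p = 0.0633 from edgeR). The Irak2 call passed in 9 of 17 alternatives and was lost without A1 culture 1 (-0.48), 2 (-0.42) or 3 (-0.34) and without A0 culture 1 (-0.37) or 2 (-0.43), with adjusted p up to 0.166 from edgeR. Between the phases Irak1 fell in both producer lines (by 0.51 in A0 and by 0.62 in A1). In A0 Myd88 rose by 0.48 and Map3k7 fell by 0.65, and in A1 Irak2 rose by 0.62 and Tradd fell by 0.59.

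Of 21 ubiquitin enzymes and negative regulators, 6 were higher and 3 lower in exponential A1 (25.9% of all genes passed). In stationary A1 3 were higher and 7 lower (33.7% of all genes). Leaving out A1 culture 2 gave 4 higher and 2 lower in exponential culture (17.2% of all genes). Rbck1, a subunit of the linear ubiquitin ligase, was higher at both phases (1.07 and 1.13), as was the ligase Itch (0.65 and 0.83). Xiap (-0.76 and -0.82) and N4bp1 (-0.57 and -0.40) were lower at both. Zfand5 was higher in exponential A1 (0.50) and lower in stationary A1 (-0.48), with an interaction of -0.99, and Ube2v1 was higher in stationary A1 (0.39). Between the phases Zfand5 rose by 1.03 in A0, Tnip2 rose by 0.52 in A0 and by 0.65 in A1, and Ube2n fell by 0.87 in A0 and by 0.39 in A1. In A0 Ube2v1 fell by 0.46, and in A1 Otulin fell by 0.32 and Itch rose by 0.19. The Itch call was lost without exponential culture 3 (0.17, adjusted p = 0.0525 from edgeR). With all 6 groups in 1 fit the A1 changes of Ube2n, Otulin and Itch did not pass (adjusted p = 0.119, 0.327 and 0.531 from edgeR).

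Of 26 target genes of NF-kB tested, 12 were higher and 2 lower in exponential A1 than in A0 (25.9% of all genes passed). At stationary phase 9 were higher and 6 lower (33.7% of all genes). Without A1 exponential culture 2, 4 were higher and 3 lower in exponential A1 (17.2% of all genes). Irf1, a transcription factor of the interferon response, was higher at both phases (0.65 and 0.76), although its exponential call was lost without that culture (0.49, adjusted p = 0.0583 from edgeR). The matrix protease Mmp9 (1.09) and the stress gene Ier3 (0.75) were higher in exponential A1, at 0.64 and 0.55 without that culture, and Csf1 (1.15) and Tnfaip8 (0.66) were higher in stationary A1. Mmp3 was lower at both phases (-0.93 and -1.84), Plau was lower in exponential A1 (-2.15), and Cflar (-0.87) and the ferritin chain Fth1 (-0.34) were lower in stationary A1. In A0, 9 of 26 targets rose and 3 fell between the phases (37.7% of all genes passed). The chemokine gene Cxcl1 had the largest of these rises, from 8.89, 9.71, 9.35 and 9.98 CPM to 219, 225, 66.8 and 43.2 CPM (log2 fold change 3.85, adjusted p = 2.12e-06 from edgeR), and Mmp9 rose by 1.77. Csf1 (-0.70) and Tnfaip2 (-0.74) were lower in stationary A0. In A1, 5 of 25 rose and 5 fell (33.4% of all genes passed), among them Fth1 (1.05) and Ptgs2 (1.03) upward and Icam1 (-0.68) and Tnfaip2 (-0.50) downward. Leaving out A1 exponential culture 2 gave 7 of 25 rising and 3 falling (29.9% of all genes passed). Tnfaip2 did not pass without exponential culture 1 of A1 (-0.32, adjusted p = 0.0803 from edgeR) or with all 6 groups in 1 fit (-0.51, adjusted p = 0.159 from edgeR). In A1 Cxcl1 was at 11.2, 70.9 and 6.86 CPM in exponential and at 99.96, 14.8 and 17.5 CPM in stationary culture. The high values were those of exponential culture 2 and stationary culture 1, the cultures that were also high for Nfkbia, Nfkbie and Tnfaip3.

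Between the phases of CHO-S, 13.3% of all genes passed with library 1 included and 47.7% without it. With it, 1 of 11 IkB proteins and IKK subunits rose (Nkiras1, 0.61), 2 of 13 receptors and ligands rose (Tlr2, 1.68, and Tnfsf12, 0.66), and of 17 adaptors and upstream kinases 1 rose and 1 fell (Irak1, -1.01). Xiap rose (1.07) and Tnip1 fell (-0.69) among 20 ubiquitin enzymes and negative regulators. Of 24 target genes, 4 rose, among them Fth1 (1.26) and Ptgs2 (1.09), and 3 fell, among them Ier3 (-1.19) and Cxcl1 (-0.89). Each of these 10 named genes also passed without library 1, with values of 0.58 for Nkiras1, 1.896 for Tlr2, 0.65 for Tnfsf12, -0.80 for Irak1, 0.95 for Xiap, -0.60 for Tnip1, 1.25 for Fth1, 1.14 for Ptgs2, -0.94 for Ier3 and -0.82 for Cxcl1. Every one of them lost the call without some other single culture. Fth1 did so without exponential culture 2 alone (1.24), Ptgs2 without exponential culture 2 (1.01) or 3 (1.07) or stationary culture 2 (0.99), Tlr2 and Xiap without any 1 exponential culture or stationary culture 2, and the other 6 genes without any 1 of the 5 cultures, with adjusted p up to 0.135 from edgeR. Without library 1, 3 of 11 IkB proteins and IKK subunits rose and 1 fell, 8 of 13 receptors and ligands rose and 1 fell, and 5 of 17 adaptors and upstream kinases rose and 7 fell. Of the 20 ubiquitin enzymes and negative regulators 8 rose and 4 fell, and of the 24 target genes 11 rose and 6 fell.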

How the data were processed

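Total RNA of 24 libraries was sequenced on an Illumina NextSeq after preparation with a stranded mRNA kit. The authors aligned the reads to the CHO genome C_griseus_v1.0 with STAR 2.5.4b and counted them per gene with HTSeq-count 0.7.2, and they deposited the counts without normalization. Reads with several alignments (12.7% to 14.8% here) were not counted, so genes with near-identical copies lose reads. The strand setting was not given in the sources used here. The 5 summary lines of HTSeq-count entered neither library sizes nor tests, and 11.9% to 32.8% of reads fell outside genes and 2.31% to 11.5% were not aligned.

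Libraries of 1 A0 culture were summed, which left 20 cultures. Pairs of exponential A0 libraries were compared by chi-square per degree of freedom. An RLT library set against its partner from the same culture gave 28.97 in culture 1 and 6.38 in culture 2. The Duplicate pairs gave 3.29 in culture 3 and 2.88 in culture 4. Culture 1 set against culture 2 gave 2.54 when the RLT libraries were left aside, less than either Duplicate pair, so these cultures may not be independent. The first A0 libraries named below are those titled neither RLT nor Duplicate. Genes were kept when 2 or more cultures held 1 or more counts and the counts varied, and were then tested with edgeR 4.0.16 in R 4.3.3 (TMM normalization, quasi-likelihood test, two-sided, Benjamini-Hochberg adjustment, threshold 0.05) in 9 pairs of groups and 3 interactions of line and phase, each fitted on its own groups. DESeq2 1.42.0, the tool of the study, served as an alternative. Other alternatives were another normalization or none, other gene filters, all 6 groups in 1 fit, first A0 libraries only, a replicate block and each culture left out. After the values were seen, fits with A0 cultures 1 and 2 or 3 and 4 alone, without TMM factors, without CHO-S stationary library 1 and without A1 exponential library 2 were added. On simulated counts for A1 against A0 in exponential culture (19398 genes), 87% of 1.5-fold and 100% of 2-fold changes were recovered with 5 false calls, and for the interaction of A1 and A0 (20416 genes) 38% and 95% with 12 false calls. The simulation gave all genes the same dispersion, changed only genes of at least 5 CPM and held no outlying or split cultures. Rates in the real cultures may therefore differ. Same-number cultures of the 2 A0 phases had correlations of deviations of 0.189 to 0.435 over 4 pairs. Unlike numbers within cultures 1 and 2 (0.179 and 0.245) or within cultures 3 and 4 (0.330 and 0.274) correlated too. Values of cultures 1 and 2 against 3 and 4 were all negative. Deviations from a group mean cancel over the group, so positive values within the sets make the others negative on balance. By the positive values at unlike numbers, the A0 samples fell into these sets and were not paired by number alone. In other groups same-number values were -0.195 to 0.186.

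The members and the gene lists were chosen with earlier results of these data known. All members are named. Of the other lists, up to 3 genes each way were named per list for A1 against A0 and up to 2 per phase comparison, by size of change among genes past the threshold, with no overlap of cultures and a mean of at least 5 CPM. Gene names came from the table, and Bcl2a1 and Mmp3 were matched by RefSeq gene ID in the CriGri-PICRH-1.0 table, whose build differs from that of the counts (coordinates are therefore left out). Tbk1, Birc3, Cxcl2, Ccl2, Ccl7 and Saa3 were not analysed here. Python 3.11.15 with pandas 2.3.3, numpy 2.4.6 and scipy 1.17.1 was used for tables.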

Additional observations from a re-analysis of the deposited data

Results flagged for a closer look

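The change from exponential to stationary phase differed between lines, by the test of the interaction itself, for the following members. Between A1 and A0 the log2 difference of the changes was -0.70 for Nfkb2, -1.10 for Relb, -0.84 for Nfkbia and -0.70 for Tnfaip3, each lower in A1. Between A0 and CHO-S it was 1.77 for Nfkb2, 1.69 for Relb and 0.92 for Nfkbia, each higher in A0, and between A1 and CHO-S it was 1.12 for Nfkb2, higher in A1. These comparisons share cultures and are not independent of each other. Without A1 exponential library 2 the values for A1 and A0 were -0.55 for Nfkb2, -0.83 for Relb, -0.51 for Nfkbia and -0.39 for Tnfaip3, and Nfkb2 and Relb passed. With all 6 groups in 1 fit, Nfkb2 (-0.69, adjusted p = 0.115 from edgeR) and Tnfaip3 (-0.69, adjusted p = 0.0838 from edgeR) did not pass. No culture lay outside its group by Dixon's test in the 20 groups of 4 A0 cultures and members, and groups of 3 were not tested.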

How the results depend on the processing

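Of 3463 single-gene values under alternatives, 3167 held their call or lack of one, 235 lost the call, 61 gained it and none reversed a call, while 67 changed sign without passing in either fit. Of 184 counts of called members, 158 were within 1.5 times of the reported count. For A1 against A0 in exponential culture (5 reported), the count was 2 with A0 cultures 3 and 4 alone and 2 to 5 with 1 culture left out, the lowest without A1 culture 2. The 2 members were Nfkbia and Ikbkb with A0 cultures 3 and 4 alone, and Nfkbie and Ikbkb without A1 culture 2. For A0 against CHO-S at stationary phase (7 reported), it was 3 with A0 cultures 1 and 2 alone and 4 with cultures 3 and 4 alone. For the phases of A0 (7 reported), it was 5 with A0 cultures 3 and 4 alone, where Rel and Nfkbib lost the call. For A1 against CHO-S at stationary phase (3 reported), it was 5 with all 6 groups in 1 fit and 2 to 7 with 1 culture left out, the highest without CHO-S library 1. For the phases of A1 (1 reported), it was 3 without a gene filter, 3 with a replicate block, 2 without TMM factors, 0 with all 6 groups in 1 fit and 1 to 6 with 1 culture left out, the highest without exponential culture 2. For the phases of CHO-S (0 reported), it was 1 with DESeq2, 2 with all 6 groups in 1 fit and 0 to 6 with 1 culture left out, the highest without stationary library 1. For the interaction of A1 and A0 (4 reported), it was 2 with all 6 groups in 1 fit, where Nfkb2 and Tnfaip3 lost the call. It was 2 without A1 exponential library 2 and 1 to 5 with 1 culture number left out, the lowest without A1 culture 2. For the interaction of A0 and CHO-S (3 reported), it was 5 with DESeq2, 5 without CHO-S stationary library 1 and 3 to 5 with 1 culture number left out. For the interaction of A1 and CHO-S (1 reported), it was 0 with a replicate block, 2 without CHO-S stationary library 1 and 0 to 1 with 1 culture number left out. The causes of these moves were not tested. Shares of all genes are not given for most of these fits, so the counts describe the members only.

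The replicate block raised the count for the phases of A0 from 7 to 8 (Nfkbie) and, for the interaction of A1 and A0, from 4 to 6 (Rel -0.58 and Nfkbib -0.49). In A0 the culture numbers followed a split of cultures 1 and 2 from cultures 3 and 4 and did not pair the samples by number alone. Outside A0 same-number correlations of deviations were from -0.195 to 0.186, so those block values describe a shared number only. Leaving out the TMM factors shifted the median of all genes by 0.105 for A0 against CHO-S and by 0.151 for A1 against CHO-S at stationary phase. Depth limits CHO-S stationary library 1, with 8 to 145 counts per member. In simulated data, with the same dispersion for all genes and no outlying cultures, the interaction test of A1 and A0 recovered 38% of 1.5-fold differences.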

Other observations

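The A1 cultures that stood high for the inhibitors also stood high for several other genes of the pathway. In exponential A1 culture 2, 4 of 10 members, 5 of 16 target genes, 1 of 9 IkB proteins and IKK subunits, 1 of 10 receptors and ligands and 1 of 20 ubiquitin enzymes and negative regulators were above the 99th percentile of all genes in their difference from the other 2 cultures, and none of 16 adaptors was. The largest of these differences were 2.88 on the log2 scale for Cxcl1 and 1.93 for Nfkbiz. In stationary A1 culture 1 the counts were 0 of 10 members, 6 of 16 target genes, 1 of 9 IkB proteins and IKK subunits and 2 of 10 receptors and ligands, with 2.56 for Cxcl1, 1.4 for Nfkbiz and 1.21 for Tlr2. No gene of these lists was above that percentile in any of the other 4 A1 cultures. Cxcl1, Nfkbiz and Mmp9 also differed within stationary A0, where cultures 1 and 2 had 96.4 and 101 CPM of Mmp9 and cultures 3 and 4 had 56.2 and 45.0 CPM. These genes were looked at after their values were seen, and no cause was tested.

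Between A1 and A0, 14 of the 89 genes of the other lists passed the interaction test, where 8.94% of all genes did (7 of 89 against 5.85% without A1 exponential library 2). The phase change was lower in A1 for Ikbkg, Tlr4, Tradd, Myd88, Tax1bp1, Zfand5, Cxcl1, Ier3, Mmp9 and Mmp3 and higher for Map3k14, Nfkbil1, Csf1 and Gadd45b. Without A1 exponential library 2, 7 of the 14 passed: Map3k14 (0.86), Tradd (-0.79), Myd88 (-0.57), Zfand5 (-0.97), Csf1 (0.91), Mmp9 (-1.51) and Mmp3 (-0.92). With 1 culture number left out at a time, Zfand5 alone of the 14 passed in every case. Without A1 culture 2 at both phases Map3k14 (0.73), Tradd (-0.75), Myd88 (-0.59), Mmp9 (-1.35) and Mmp3 (-0.86) did not pass, and Csf1 did not pass without A1 culture 1 (0.66) or 3 (0.72).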
